A study of Saccharomyces cerevisiae with 6 samples.

Results

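The 10 genes described here encode subunits and initiation factors of RNA polymerase I in the yeast *Saccharomyces cerevisiae*: RPA190, RPA135, RPA49, RPA34, RPA43, RPA14 and RPA12 of the enzyme, the initiation factor RRN3, and RRN6 and RRN7 of core factor. They are 10 of the 6256 genes on the arrays, found by name among the non-control spots, and all 10 were among the 6119 genes that could be tested. They were selected on their log2 mutant over reference ratios on these arrays, so those ratios are given as a description and support no claim about the pathway. Each of 6 Agilent two-colour arrays compared total RNA of a tra1 mutant strain with that of a TRA1 strain, and each of the 3 alleles, tra1_P3408A, tra1_SRR3413 and tra1_S3463A, had 2 arrays with the dyes swapped.

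In every strain, the reference included, the chromosomal TRA1 carries the TRA1::Tn10LUK disruption and a myc-tagged TRA1 or tra1 gene is supplied on the centromeric plasmid YCplac111. The reference plasmid carries myc-TRA1_SB, and the mutant plasmids carry myc-tra1_P3408A, myc-tra1_SRR3413 or myc-tra1_S3463A. The controls therefore also lack an intact chromosomal copy, and each genotype is 1 strain. Growth conditions are not given in the sources used here. No label says that the arrays of an allele came from separate cultures, so p-values measure only the spread between these arrays, which may be technical. The labels of array 1 of tra1_S3463A conflict, since its source text names the tra1_SRR3413 strain, and its title was followed.

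RNA polymerase I transcribes one gene, the tandemly repeated ribosomal DNA, and makes the large precursor of the ribosomal RNAs. Rrn3 binds the free enzyme through its stalk and makes it competent to start, core factor (Rrn6, Rrn7 and Rrn11) binds the promoter, and upstream activating factor and the TATA-binding protein assist. The genes for these proteins are themselves transcribed by RNA polymerase II. Tra1 is the large PI3K-related subunit shared by the SAGA and NuA4 acetyltransferase complexes, which activators of RNA polymerase II genes recruit, and the 3 alleles change residues of its PI3K-related domain.

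The 6 arrays lay on 3 slides, each with 2 arrays of different alleles: slide 1 held the first arrays of tra1_P3408A and tra1_SRR3413, slide 2 the second array of tra1_P3408A and the first of tra1_S3463A, and slide 3 the second arrays of tra1_SRR3413 and tra1_S3463A. The mutant RNA was in Cy5 on every array 1 and in Cy3 on every array 2. Slide 3 stood apart. On its arrays the median Cy3 signal of all gene spots, before background subtraction and dye normalization, was 2760 and 3617, against 1167 to 1434 on the other 4. Of all genes tested, 53.8% had both slide 3 ratios outside the range of the other 4 arrays. That share was not worked out for slides 1 and 2, and only slide 3 had the mutant in Cy3 on both arrays. Of the 114 spots of the 10 genes, 111 were used, none was saturated and all were well above background. RPA34 had 1 spot per array and the others 2, whose log2 ratios differed by 0.03 in the median and by 0.25 at most. The TRA1 spots gave log2 ratios of 0.73 to 1.93 and do not check the labels, since the alleles are changes within the coding sequence.

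RPA135 and RRN3 had log2 ratios of at least 0.82 on every array, and the other 8 genes were closer to the reference or changed side between arrays. RPA135 encodes the second largest subunit, which forms the catalytic cleft with Rpa190. Its log2 mutant over reference ratio was 1.10 and 0.93 on arrays 1 and 2 of tra1_P3408A, 0.82 and 0.94 in tra1_SRR3413, and 1.03 and 1.17 in tra1_S3463A. All 6 arrays were above 0. The range of tra1_P3408A overlapped those of the other alleles, while both tra1_S3463A arrays lay above both tra1_SRR3413 arrays. The processed signals behind them were 2091 in the mutant against 930.1 in the reference and 3000 against 1529 for tra1_P3408A. In tra1_SRR3413 they were 1648 against 892.9 and 2590 against 1293, and in tra1_S3463A 2236 against 1039 and 3160 against 1364. The mutant signal was higher than the reference signal in each pair. The means were 1.01 ± 0.12 (SD, n = 2), a 2.02-fold ratio, in tra1_P3408A, 0.88 ± 0.09 (SD, n = 2), 1.84-fold, in tra1_SRR3413, and 1.10 ± 0.10 (SD, n = 2), 2.14-fold, in tra1_S3463A.

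RRN3, whose product links the polymerase to core factor at the promoter, had the highest ratio of the 10 genes on each of the 6 arrays. Its log2 ratio was 1.16 and 1.13 in tra1_P3408A, 1.20 and 1.58 in tra1_SRR3413, and 1.10 and 1.47 in tra1_S3463A, on arrays 1 and 2. Both slide 3 arrays lay above the other 4, which spanned only 1.10 to 1.20. The reference signal of RRN3 varied little, from 394.5 to 465.7 over the 6 arrays, while the mutant signal was 997.2 and 932.9 in tra1_P3408A, 1083 and 1508 in tra1_SRR3413, and 927.6 and 1231 in tra1_S3463A. The mean log2 ratio was 1.14 ± 0.03 (SD, n = 2), 2.21-fold, in tra1_P3408A, 1.39 ± 0.27 (SD, n = 2), 2.62-fold, in tra1_SRR3413, and 1.28 ± 0.26 (SD, n = 2), 2.44-fold, in tra1_S3463A. Among the 6119 genes ordered by mean ratio from the highest, RRN3 stood at place 19 in tra1_P3408A, 14 in tra1_SRR3413 and 11 in tra1_S3463A, and RPA135 at 42, 141 and 27.

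**Figure D1:**
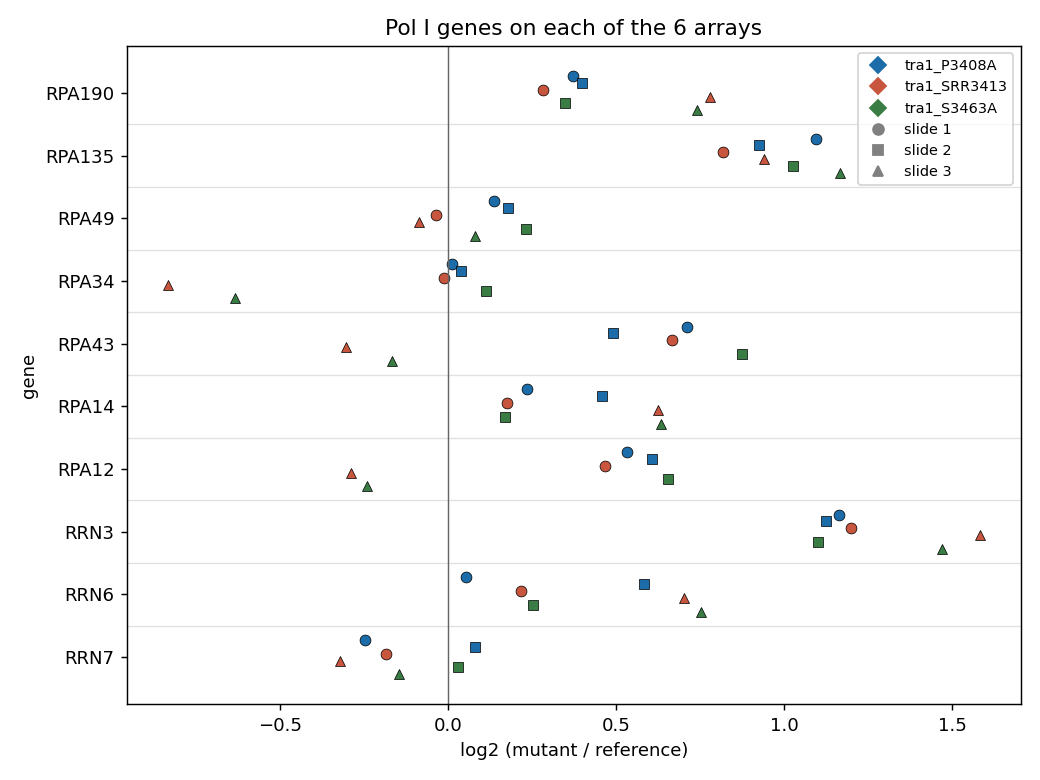
Log2 mutant over reference ratio (x axis) of each of the 10 genes (rows) on each of the 6 arrays. Colour gives the allele and marker shape the slide. RPA135 and RRN3 lie right of 0.8 on every array, and the slide 3 triangles of RPA43, RPA12 and RPA34 lie left of 0.

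RPA190 encodes the largest subunit. Its log2 ratio was 0.37 and 0.40 in tra1_P3408A, 0.28 and 0.78 in tra1_SRR3413, and 0.35 and 0.74 in tra1_S3463A. All 6 values were above 0, and the slide 3 pair lay above the other 4. Its means were 0.39 ± 0.02, 0.53 ± 0.35 and 0.54 ± 0.28 (SD, n = 2 each) in tra1_P3408A, tra1_SRR3413 and tra1_S3463A. RPA190 therefore sat at a lower ratio than RPA135, its partner in the catalytic core, on each of the 6 arrays.

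The stalk subunits Rpa43, which contacts Rrn3, and Rpa14 form 1 heterodimer. The log2 ratio of RPA43 was 0.71 and 0.49 in tra1_P3408A, 0.67 and -0.30 in tra1_SRR3413, and 0.88 and -0.17 in tra1_S3463A. The 4 arrays of slides 1 and 2 were all above 0 and both slide 3 arrays below it. RPA43 signals were 1779 against 1043 and 2505 against 1742 in tra1_P3408A, the mutant first. In tra1_SRR3413 they were 1876 against 1135 and then 1248 against 1502, and in tra1_S3463A 2321 against 1198 and then 1373 against 1515. The order of mutant and reference thus changed between the arrays of an allele. The means were 0.60 ± 0.16, 0.18 ± 0.69 and 0.35 ± 0.74 (SD, n = 2 each) in tra1_P3408A, tra1_SRR3413 and tra1_S3463A, and in the last 2 the SD exceeded the mean. RPA14 went the other way on slide 3. Its log2 ratio was 0.24 and 0.46 in tra1_P3408A, 0.18 and 0.63 in tra1_SRR3413, and 0.17 and 0.63 in tra1_S3463A, with means of 0.35 ± 0.16, 0.40 ± 0.32 and 0.40 ± 0.33 (SD, n = 2 each).

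Rpa12 carries the RNA cleavage activity of the enzyme and is related to the Pol II subunit Rpb9 and the elongation factor TFIIS. The log2 ratio of RPA12 was 0.53 and 0.61 in tra1_P3408A, 0.47 and -0.29 in tra1_SRR3413, and 0.65 and -0.24 in tra1_S3463A. As for RPA43, the slide 3 arrays were below 0 and the other 4 above it. The means were 0.57 ± 0.05, 0.09 ± 0.53 and 0.21 ± 0.63 (SD, n = 2 each).

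Rpa49 and Rpa34 form a heterodimer that is related to TFIIF and helps initiation and elongation. RPA49 stayed near the reference, with log2 ratios of 0.14 and 0.18 in tra1_P3408A, -0.04 and -0.09 in tra1_SRR3413, and 0.23 and 0.08 in tra1_S3463A. Its means were 0.16 ± 0.03, -0.06 ± 0.04 and 0.16 ± 0.11 (SD, n = 2 each). RPA34 was at 0.01 and 0.04 in tra1_P3408A, -0.01 and -0.83 in tra1_SRR3413, and 0.11 and -0.63 in tra1_S3463A. The 4 arrays of slides 1 and 2 lay between -0.01 and 0.11, and both slide 3 arrays lay far below. RPA34 signals on slide 3 were 1507 against 2646 in tra1_SRR3413 and 1933 against 2969 in tra1_S3463A, the mutant first. The means of RPA34 were 0.02 ± 0.02, -0.42 ± 0.58 and -0.26 ± 0.53 (SD, n = 2 each). With 1 spot per array, RPA34 has no second spot to set beside these values.

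The 2 core factor genes differed. RRN6 was at 0.05 and 0.58 in tra1_P3408A, 0.22 and 0.70 in tra1_SRR3413, and 0.25 and 0.75 in tra1_S3463A on the log2 scale. In each allele array 2, with the mutant in Cy3, was the higher, and the means were 0.32 ± 0.37, 0.46 ± 0.34 and 0.50 ± 0.35 (SD, n = 2 each). RRN7, which encodes the TFIIB-related subunit, was at -0.25 and 0.08 in tra1_P3408A, -0.18 and -0.32 in tra1_SRR3413, and 0.03 and -0.14 in tra1_S3463A. Its means of -0.08 ± 0.23, -0.25 ± 0.10 and -0.06 ± 0.12 (SD, n = 2 each) were the lowest or second lowest of the 10 genes in each allele.

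**Figure D2:**
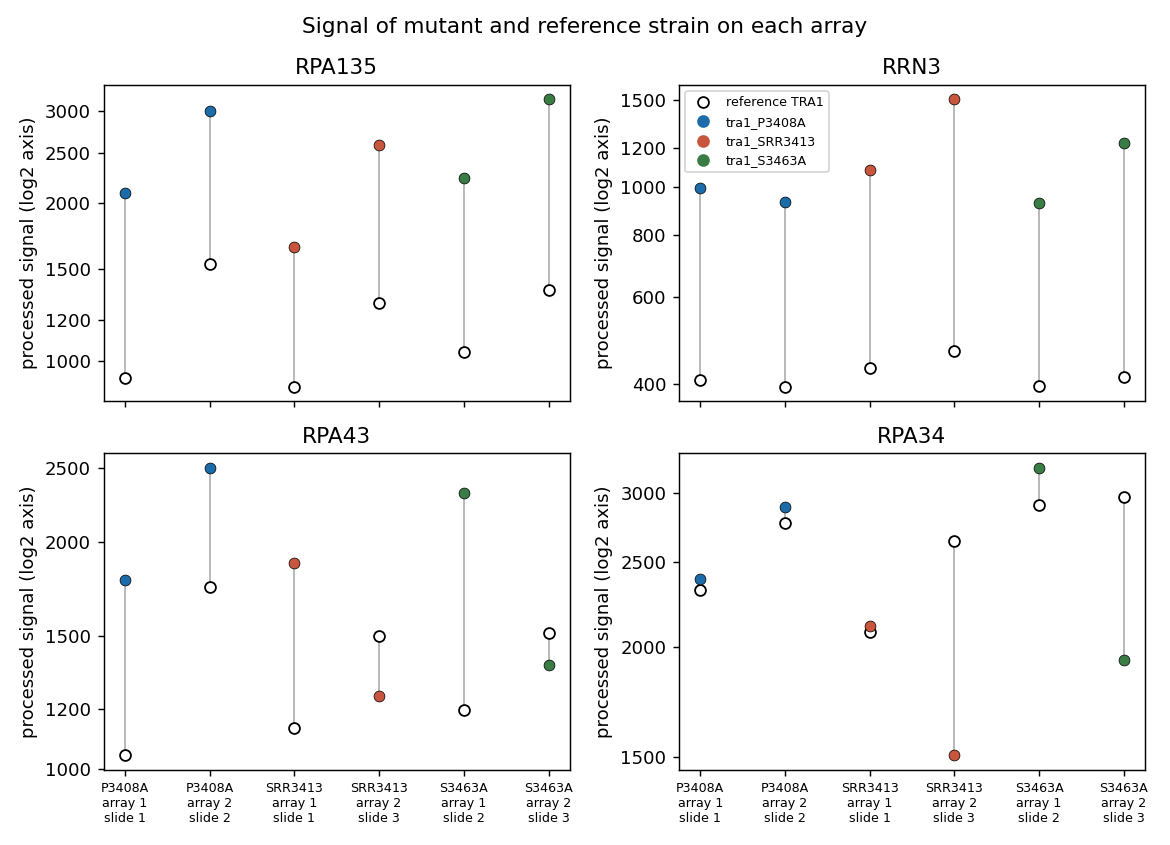
Processed signal (y axis, log2 scale, with its own range in each panel) of RPA135, RRN3, RPA43 and RPA34 on the 6 arrays (x axis). Open circles are the reference strain and filled circles the mutant strain hybridised to the same array, joined by a line. RPA135 and RRN3 are higher in the mutant on all 6 arrays, and for RPA43 and RPA34 the mutant lies below the reference on both slide 3 arrays.

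Over the 10 genes the median of the allele means on the log2 scale was 0.37 in tra1_P3408A, 0.29 in tra1_SRR3413 and 0.38 in tra1_S3463A, where the medians of all 6119 genes were -0.01, -0.01 and 0.00. Of the 10 genes, 9, 7 and 8 had a mean above 0, against 2975, 3024 and 3064 of all genes. The limma test of each allele's mean against 0, adjusted over all 6119 genes by Benjamini-Hochberg, called 2 of the 10 genes higher at an adjusted p under 0.05 in each allele, RPA135 and RRN3, and none lower. It called 4.76% of all genes higher and 7.93% lower in tra1_P3408A, 9.33% higher and 11.7% lower in tra1_SRR3413, and 6.37% higher and 8.69% lower in tra1_S3463A. Because the ratios chose the genes, nothing is read from these counts. All 3 comparisons share the reference strain.

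The array numbers, which follow the dye orientation and in tra1_SRR3413 and tra1_S3463A also set slide 3 apart, were taken to pair the samples. A fit with the array number as a replicate block called 7 of the 10 genes higher in tra1_P3408A (RPA190, RPA135, RPA43, RPA14, RPA12, RRN3 and RRN6), with RPA12 only just inside the threshold. It called 5 higher in tra1_SRR3413 and the same 5 in tra1_S3463A, namely RPA190, RPA135, RPA14, RRN3 and RRN6. In that fit none of the 10 was called lower, and of all genes 16.9%, 24.1% and 21.2% were called higher and 19.3%, 25.1% and 21.9% lower in the 3 alleles. With the slide as a block, which leaves 1 residual degree of freedom, the same 7 genes as in tra1_P3408A were called higher in each allele, against 21.3%, 25.0% and 24.5% of all genes. RPA34 was called lower in tra1_SRR3413, where 26.1% of all genes were. The slide block also changes the estimates. In tra1_P3408A, which has no array on slide 3, RPA43 went from 0.60 to 0.26 and RPA12 from 0.57 to 0.30. There RPA190 rose from 0.39 to 0.53 and RPA14 from 0.35 to 0.50.

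By their ratios on the slide 3 arrays against the other 4 arrays, the 10 genes fell into 3 sets. Both slide 3 arrays were also second arrays with the mutant in Cy3. On slide 3 RPA43, RPA12 and RPA34 had log2 ratios below all 4 other arrays, by 0.92, 0.83 and 0.77 between the means. RPA190, RPA14, RRN3 and RRN6 had ratios above all 4 other arrays, by 0.41, 0.37, 0.38 and 0.45. RPA135, RPA49 and RRN7 overlapped, with differences of 0.09, -0.13 and -0.15. Among all genes tested the median size of this difference was 0.25, and 2.37%, 3.86% and 5.15% of genes had one at least as large as RPA43, RPA12 and RPA34. For RPA190, RPA14, RRN3 and RRN6 the corresponding shares were 28.0%, 32.6%, 31.5% and 23.9%. Of all genes tested, 53.8% had both slide 3 ratios above or both below the other 4 arrays.

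The set that was lower on slide 3 crosses the subunit pairs, since it holds 1 of the 2 stalk genes and 1 of the 2 heterodimer genes. In the R64 annotation the coding lengths of RPA43, RPA12 and RPA34 are 981, 378 and 702 bases, and those of RPA190, RPA14, RRN3 and RRN6 are 4995, 414, 1884 and 2685. RPA190 and RPA43 are adjacent and divergently transcribed on chromosome XV, and on slide 3 they moved to opposite sides of their values on the other slides. Over the 6 arrays, Pearson's r among RPA43, RPA12 and RPA34 was 0.965 to 0.990, and r of RPA34 with RRN3 was -0.997. These are descriptions over 6 points that share the slides, with no test. The part of the slide, the dye and the alleles in this pattern was not tested, since both arrays of slide 3 are second arrays, of tra1_SRR3413 and tra1_S3463A, with the mutant in Cy3. Array 2 of tra1_P3408A, with the mutant in Cy3 on slide 2, gave 0.49, 0.61 and 0.04 for RPA43, RPA12 and RPA34. Array 1 of that allele gave 0.71, 0.53 and 0.01. For RPA190, RPA14, RRN3 and RRN6, array 2 of tra1_P3408A gave 0.40, 0.46, 1.13 and 0.58. Its array 1 gave 0.37, 0.24, 1.16 and 0.05 for them. Array 2 of tra1_P3408A differs from the slide 3 arrays in allele as well as in slide.

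**Figure D3:**
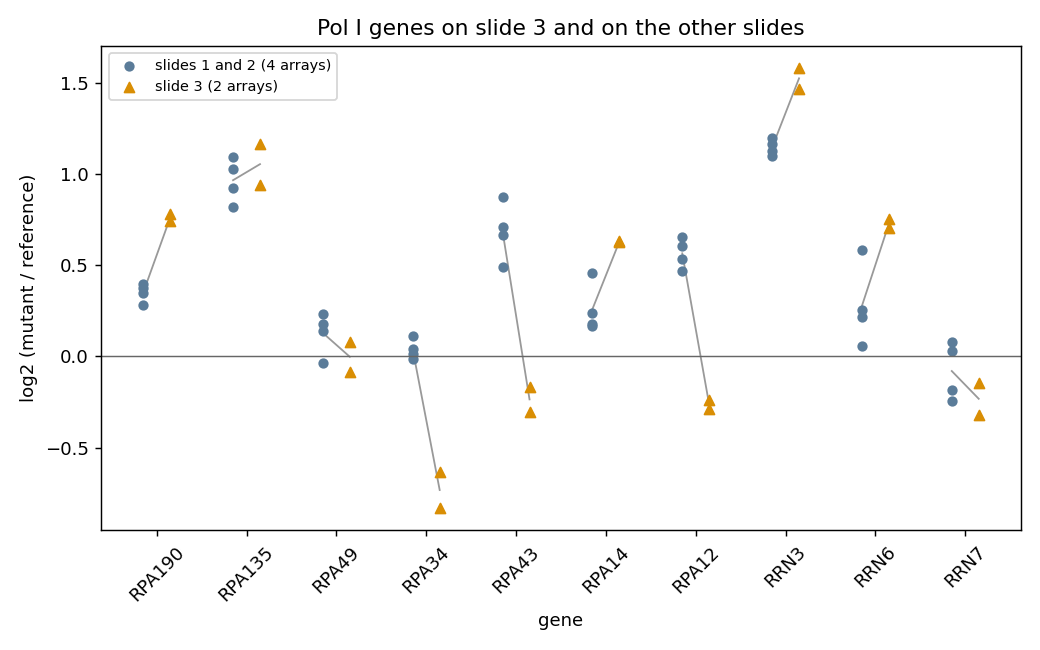
Log2 mutant over reference ratio (y axis) of the 10 genes (x axis) on the 4 arrays of slides 1 and 2 (circles) and the 2 arrays of slide 3 (triangles). Grey lines join the means of the 2 sets. RPA34, RPA43 and RPA12 drop on slide 3, RPA190, RPA14, RRN3 and RRN6 are higher there, and RPA135, RPA49 and RRN7 overlap.

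Without slide 3, a setting chosen after the data were seen, tra1_SRR3413 and tra1_S3463A have 1 array each and borrow the spread of tra1_P3408A. There the 10 genes called higher were 5 in tra1_P3408A (RPA190, RPA135, RPA43, RPA12 and RRN3), 3 in tra1_SRR3413 (RPA135, RPA43 and RRN3) and 4 in tra1_S3463A (RPA135, RPA43, RPA12 and RRN3). Of all genes, 11.6%, 6.62% and 5.07% were called higher. The log2 ratio of RPA43 without slide 3 was 0.60, 0.67 and 0.88 in the 3 alleles and that of RPA12 0.57, 0.47 and 0.65. RPA135 and RRN3 kept values of 0.82 to 1.20 in this setting.

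The contrasts between alleles asked whether any of the 10 genes responded more to one allele than to another. None of them did at an adjusted p under 0.05 in limma, in any of the 3 contrasts, and 0% of the 6119 genes passed, with or without the array number as a replicate block. At an unadjusted p under 0.05 the contrasts called 105, 6 and 105 genes, and 742, 88 and 502 with the block. Their order is tra1_SRR3413 minus tra1_P3408A, tra1_S3463A minus tra1_P3408A and tra1_SRR3413 minus tra1_S3463A. None of the 10 genes was among those called, with or without the block. The lowest unadjusted p of the 10 genes by limma was 0.189 without the block and 0.0843 with it. Both were for RPA49 in tra1_SRR3413 minus tra1_P3408A. A p that misses the threshold does not show that the alleles act alike, and the 95% intervals bound what differences the arrays allow.

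For RPA49 these intervals were narrowest, 0.36 to either side on the log2 scale, and for RPA43 widest, 1.06 to either side. The difference of RPA135 was -0.13 (-0.52 to 0.25) for tra1_SRR3413 minus tra1_P3408A, 0.09 (-0.30 to 0.47) for tra1_S3463A minus tra1_P3408A and -0.22 (-0.60 to 0.17) for tra1_SRR3413 minus tra1_S3463A. For RRN3 it was 0.25 (-0.26 to 0.75), 0.14 (-0.37 to 0.65) and 0.11 (-0.40 to 0.61) in the same order. All 6 intervals include 0, and their farthest bounds were -0.60 and 0.75. RPA12 had the lowest difference of the 10 genes, -0.48 (-1.37 to 0.41) for tra1_SRR3413 minus tra1_P3408A, and RPA34 was at -0.45 (-1.30 to 0.40) and RPA43 at -0.42 (-1.48 to 0.65) there. In this contrast 1 of the 2 tra1_SRR3413 arrays lay on slide 3 and no tra1_P3408A array did. All these values are from the fit with no block. With the slide as a block, RPA12 was at -0.04 (-0.33 to 0.24) in this contrast. RPA34 was then at -0.06 (-0.34 to 0.23) and RPA43 at 0.05 (-0.26 to 0.37), while RPA135 moved farther from 0, to -0.23 (-0.52 to 0.06). In tra1_S3463A minus tra1_P3408A, RPA43 was at -0.25 with no block and at 0.29 with the slide as a block.

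**Figure D4:**
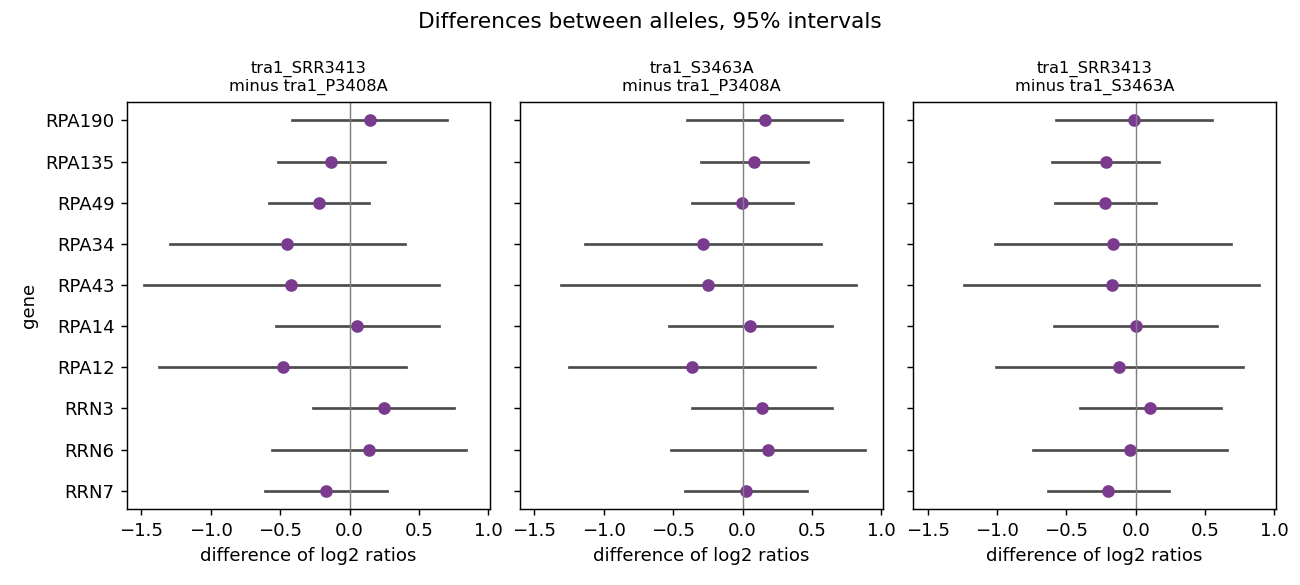
Difference between 2 alleles in the mean log2 mutant over reference ratio (x axis) for the 10 genes (rows), 1 panel per contrast. Points are limma estimates of the fit with no block, from 2 arrays per allele, and bars their 95% intervals. Every bar crosses 0, and those of RPA43, RPA12 and RPA34 are the widest.

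Lists of companion genes were set beside the 10, picked from knowledge of the polymerases and described by counts and medians. Of 8 other Pol I factors, 1 rose in each allele, RRN5, a subunit of upstream activating factor, with mean log2 ratios of 0.55 ± 0.04, 0.62 ± 0.05 and 0.72 ± 0.19 (SD, n = 2 each) and limma adjusted p of 0.0326, 0.0164 and 0.0139. None fell. RPC40, shared with RNA polymerase III, had 0.34, 0.19 and 0.28, and RRN11, the remaining core factor gene, -0.28, -0.18 and -0.13, and neither passed. The list medians were -0.03, -0.14 and 0.03.

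Of the 5 subunits shared by all 3 polymerases, 1 passed in 1 allele: RPB8 rose in tra1_S3463A, by 0.52 ± 0.01 (SD, n = 2; limma adjusted p 0.0353), and had 0.44 and 0.33 in the others. RPB5 was below 0 in each allele, at -0.28, -0.66 and -0.42, without passing. Of 6 Pol II-specific subunits tested, none passed in any allele, and the list medians were 0.05, 0.11 and 0.16. RPB4 had the highest values there, 0.35, 0.36 and 0.38, and RPB11 had 0.21, 0.16 and 0.15. RPO21, the largest subunit, had 0.01, 0.16 and 0.24.

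Of 10 Pol III-specific subunits, 3 rose in tra1_P3408A, 2 in tra1_SRR3413 and 2 in tra1_S3463A, and none fell. RPC82, in the initiation subcomplex of Pol III, had 0.71 ± 0.04, 0.89 ± 0.16 and 0.79 ± 0.13 (SD, n = 2 each), and RPC53, in its TFIIF-like heterodimer, 0.50 ± 0.09, 0.62 ± 0.09 and 0.58 ± 0.09 (SD, n = 2 each). Both passed in all 3 alleles. RPO31, the largest subunit, had 0.80 ± 0.15, 0.55 ± 0.35 and 0.68 ± 0.36 (SD, n = 2 each) and passed only in tra1_P3408A, and its slide 3 values were 0.30 and 0.43 against 0.69 to 0.94 on the other 4 arrays. The medians of the list were 0.38, 0.24 and 0.31. Of 7 TFIIIB and TFIIIC genes, TFC4 rose in tra1_SRR3413 (0.55) and tra1_S3463A (0.51), had 0.41 in tra1_P3408A, and was the only one to pass. BRF1 had 0.10, 0.26 and 0.07, and TFC7 0.13, -0.04 and 0.08.

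Of 16 genes of rDNA chromatin, silencing and elongation, 3, 4 and 4 rose in the 3 alleles and none fell, with medians of 0.13, 0.29 and 0.23. TOP1, the topoisomerase that relieves supercoils in the rDNA, had 0.54 ± 0.05, 0.93 ± 0.17 and 0.59 ± 0.02 (SD, n = 2 each), and NSI1, an rDNA silencing and termination factor, 0.54 ± 0.06, 0.72 ± 0.18 and 0.61 ± 0.07 (SD, n = 2 each). Both passed in every allele. SPT4, an elongation factor of Pol I and Pol II, had 0.66, 0.77 and 0.79 and passed in tra1_SRR3413 and tra1_S3463A. Of 14 regulators of ribosome biogenesis transcription, 3, 6 and 5 rose and none fell, with medians of 0.31, 0.37 and 0.34. DOT6, a repressor of ribosome biogenesis genes, had 0.67, 0.89 and 0.73, and RAP1, an activator of ribosomal protein genes, 0.63, 0.73 and 0.86, and both passed in every allele. IFH1, a coactivator of those genes, had 0.36, 0.65 and 0.35 and passed in tra1_SRR3413. The counts and calls of these lists are those of the fit with no block. That fit called 4.76%, 9.33% and 6.37% of all genes higher and 7.93%, 11.7% and 8.69% lower.

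With the array number as a replicate block, which called 16.9%, 24.1% and 21.2% of all genes higher and 19.3%, 25.1% and 21.9% lower, more of the companion genes passed in both directions. In the order of the alleles above, 6, 5 and 6 of the 10 Pol III-specific subunits were higher and 0, 2 and 1 lower, RPO31 being among those higher in each allele. RPC11 was lower in tra1_SRR3413 (-0.29) and tra1_S3463A (-0.23) and RPC25 in tra1_SRR3413 (-0.26). RPB4 became the 1 Pol II-specific subunit called, higher in all 3 alleles, with limma adjusted p of 0.0147, 0.0107 and 0.0114. Of the shared subunits, RPB8 was higher in all 3 alleles and RPB5 lower in tra1_SRR3413 (adjusted p 0.00577, limma) and tra1_S3463A (0.0275). Among the other Pol I factors, RRN5 was higher in each allele, RPC40 also in tra1_P3408A and tra1_S3463A, and RRN11 was lower in tra1_P3408A. TFC4 was higher in all 3 alleles and BRF1 in tra1_SRR3413. The rDNA list had 6, 11 and 7 genes higher and 1, 1 and 0 lower, PAF1 in tra1_P3408A (-0.27) and CSM1 in tra1_SRR3413 (-0.34). The regulators had 7, 9 and 9 higher and none lower. RPC11, RPC25, PAF1 and CSM1 are named after their values were seen.

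**Figure D5:**
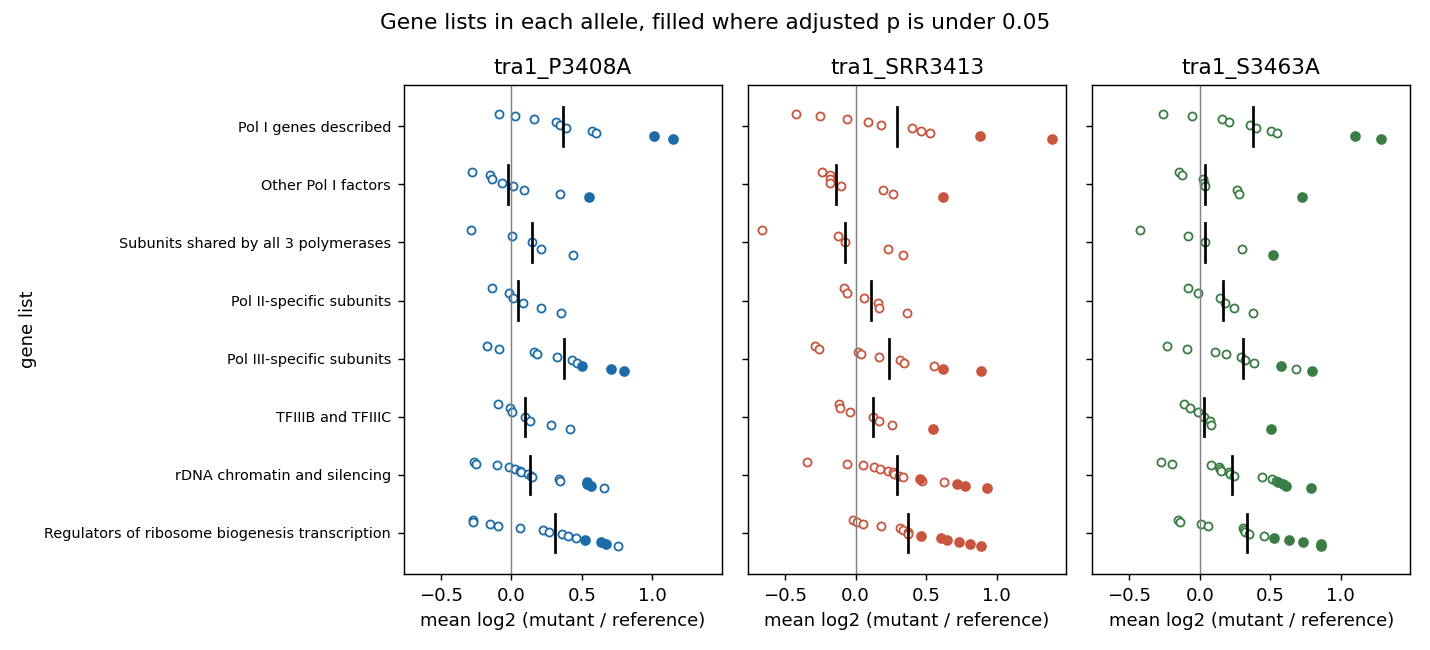
Mean log2 mutant over reference ratio (x axis) of each gene in 8 lists (rows), 1 panel per allele, with 2 arrays per allele. Filled points passed limma at an adjusted p under 0.05 over 6119 genes, open points did not, and black bars are list medians. The Pol I genes described, which were selected on these ratios, the Pol III-specific subunits and the regulators have medians of 0.24 to 0.38. Those of the rDNA list are 0.13 to 0.29, and those of the Pol II-specific subunits 0.05 to 0.16. TFIIIB and TFIIIC have 0.03 to 0.12, the shared subunits -0.07 to 0.14, and the other Pol I factors -0.14 to 0.03.

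The genes next to the 10 on the chromosomes were looked up in the R64 annotation. Of 15 such neighbours outside the 10 that were tested, 3 passed in at least 1 allele, and they are named after their values were seen. Of all 6119 genes, 776 were called in either direction in tra1_P3408A, 1289 in tra1_SRR3413 and 922 in tra1_S3463A. These are counts for single alleles, and the number of all genes called in at least 1 allele was not worked out. Nothing is read from the count of neighbours. NTA1, divergent from RPA12 and coding for an N-terminal amidase, was lower in all 3 alleles, at -0.50, -0.48 and -0.61. SSH4, downstream of RRN3 on the same strand, had 0.41, 0.85 and 0.70 and passed in 1 allele, and YDR157W, downstream of RPA14, had 0.30, 0.25 and 0.46 and passed in 1.

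The mean profile of the 10 genes over the 6 arrays was 0.41, 0.49, 0.36, 0.28, 0.48 and 0.37 on the log2 scale, in the order tra1_P3408A, tra1_SRR3413 and tra1_S3463A. It averages patterns that oppose each other, since the r of a single one of the 10 genes with it ran from -0.86 to 0.93. The 8 other genes with the highest r over the 6 arrays were FSF1 (0.989), FRE1, LNP1, NOC4, BMT2, YNL108C, TAT2 and BAR1 (0.979). The 5 nearest by root mean square distance were FRE1 (0.02), IKI1 (0.03), DBP7 (0.05), NPY1 (0.05) and CKS1 (0.06). FRE1 is in both sets and had 0.42, 0.52, 0.33, 0.29, 0.50 and 0.36 on the 6 arrays.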

How the data were processed

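The authors deposited spot intensity values from Agilent Feature Extraction 7.5.1, as named in the file headers: uncorrected mean and background signals and a processed intensity that is background-subtracted and dye-normalized by lowess. Log10 ratios of Cy5 over Cy3 processed signals were also deposited, per the file headers. The deposited series table holds log10 ratios that equalled those of the scanner's dye-normalized signals, turned to mutant over reference, within 1e-04.

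The uncorrected signals of all 10807 spots on each array were corrected by normexp (offset 50) and loess-normalized in limma 3.58.1 (R 4.3.3). Printed signals of single genes are the processed ones, and the array medians of Cy3 signal are of uncorrected signals. Printed ratios come from the limma values, so small ratios can differ in sign from the signals. Control spots (544) and outlier spots (0.370% to 8.02% of 10263 gene spots per array) were left out. Spots of a gene were averaged. Dim genes (2) and genes lacking a value on some array (135) were left out, which left 6119. One fit of 6 arrays gave a mean per allele, tested two-sided against 0 with eBayes (3 residual and 3.08 prior degrees of freedom) and Benjamini-Hochberg adjustment at 0.05. Contrasts between alleles came from the same fit. The small number of arrays limits the precision. The code was tested on simulated data.

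The 10 genes, the companion lists and the tests were chosen with earlier results of these data known. Named beside them are TRA1, up to 3 genes per list with the smallest p, and the 8 and 5 genes most like the mean profile. Deviations of same-numbered arrays from their allele means correlated over genes at 0.512 for tra1_P3408A with tra1_SRR3413 and 0.467 for tra1_P3408A with tra1_S3463A. For tra1_SRR3413 with tra1_S3463A, whose second arrays share slide 3, the correlation was 0.930. All were over 0.1, so the array number was taken to pair the arrays. It follows the dye orientation, and in tra1_SRR3413 and tra1_S3463A it also sets slide 3 apart. Of the systematic names, 5756 (92.0%) were in the R64 table, used for names, neighbours and coding lengths. RPB7 and TFC1, each without a value on at least 1 array, stayed out of the tests.

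Of array 2 of tra1_SRR3413 and of tra1_S3463A, the source text of 1 channel names another dye than its label field, and titles and label fields were followed. Alternatives were other signals, normalization, filters and groupings, both blocks, and leaving out each array.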

Additional observations from a re-analysis of the deposited data

How the results depend on the processing

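Besides the reported setting, 18 others were run. The 3 contrasts between alleles called 0 of the 10 genes under each of them. The number of the 10 genes called in an allele stayed within 1.5 times the reported 2 in 12, 15 and 14 of the 18 settings for tra1_P3408A, tra1_SRR3413 and tra1_S3463A, and no called gene changed direction. It was 5 in tra1_P3408A with only its own arrays in the fit. With the array number as a replicate block it was 7, 5 and 5. Blocking on the slide gave 7, 8 and 7. Without slide 3 it was 5 in tra1_P3408A and 4 in tra1_S3463A. Leaving out 1 array at a time gave 0 to 2 in tra1_P3408A, 1 to 2 in tra1_SRR3413 and 0 to 3 in tra1_S3463A. In tra1_P3408A both RPA135 and RRN3 were lost without array 1 and without array 2 (adjusted p 0.0804 to 0.159 by limma), where 1 and 46 of all genes were called. In tra1_SRR3413 RPA135 was lost without array 2 (adjusted p 0.0578), and in tra1_S3463A both were lost without array 2 (0.0519 and 0.0561). A fit then assumes that the lone array varies like the other alleles, and fewer arrays are its construction. Over all settings RPA135 stayed between 0.82 and 1.18 and RRN3 between 1.10 and 1.58 on the log2 scale. The calls over all genes, 776, 1289 and 922 in the order above, became 2214, 3010 and 2635 with the replicate block and 2679, 3126 and 2983 when the slide was blocked, and the cause was not tested. Those of tra1_P3408A were 1571 with its own arrays and 979 with array 1 of tra1_S3463A counted with tra1_SRR3413, where the others became 2004 and 326. Leaving out 1 array gave from 1 to 801, 331 to 1209 and 138 to 963.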
